A study of Homo sapiens with 12 samples.

Results

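Low-folate EA.hy926 cells were compared with folate-replete EA.hy926 cells while both were under the antifolate pemetrexed. The comparison rests on 6 of the series' 12 arrays, all arrays whose labels name pemetrexed, 3 labelled Lo PMX and 3 labelled Hi PMX, called biological replicates, and it covers 18417 genes. EA.hy926 is an established human line that arose from a fusion of endothelium of the umbilical vein with the lung carcinoma line A549, so its RNA carries genes of both parents. Lo cells had been adapted to Medium 199 with 23 nM folic acid and Hi cells had grown in parallel in the same medium brought to 9 uM folic acid, both with 10% fetal calf serum. At confluence the medium was renewed, and 24 h later 0.5 uM pemetrexed was added for 48 h (Lo PMX and Hi PMX). The other 6 arrays are the untreated Lo Control and Hi Control cells, 3 arrays each. Lo and Hi cells are separately kept cultures of 1 line, so a difference between Lo PMX and Hi PMX holds the folate level, its meeting with the drug and any other difference between the cultures, and these cannot be told apart from the treated arrays alone. The labels do not say whether replicates were separate cultures, so p-values measure the spread between these samples, which may be technical.

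Folates carry the one-carbon units that cells need to make thymidylate, purines and methionine. Pemetrexed enters cells through the folate carriers SLC19A1 and SLC46A1, is lengthened with glutamates by FPGS, and blocks folate enzymes, among them thymidylate synthase (TYMS) and the purine enzyme GART, in competition with natural folates. A cell short of thymidylate and purines stalls in S phase, activates the p53 and nutrient stress pathways and stops dividing. Endothelial cells line vessels, hold blood cells and plasma inside them, and answer stress with cytokines and adhesion molecules.

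All values are log2 levels, and a difference of 1 is 2-fold. The array medians lay between 8.01 and 8.04. Across genes, which are not independent replicates, arrays of the same treated group correlated at r = 0.9947 to 0.9974 and arrays of different treated groups at r = 0.9791 to 0.9831, so all 6 treated arrays sorted with their labels. The arrays labelled Hi Control 3 and Lo Control 3 went against theirs. The array labelled Hi Control 3 had a mean r of 0.995 with the Lo Control arrays and of 0.990 with the other Hi Controls, and the array labelled Lo Control 3 had 0.997 with Hi PMX and 0.992 with the other Lo Controls. Whether these 2 labels were exchanged was not tested, and every value from 3 against 3 controls or from all 12 arrays takes them as labelled. No control array enters the comparison of treated cells. In treated cells PECAM1 and CDH5 of endothelium read from 11.98 to 13.44 and the keratin KRT18 from 11.50 to 11.85, above the array medians. The mean over 24 epithelial and lung carcinoma markers lay below those medians, at 7.91 to 7.94 in Lo PMX and 7.62 to 7.64 in Hi PMX. KRT18 therefore does not stand for that list, and no detection call is given. Differences between control cultures are given below without Hi Control 3 and Lo Control 3, 2 arrays against 2, unless stated otherwise. A gene given without a control difference may also differ between the control cultures. Bulk RNA cannot tell fewer cells of a kind from less RNA in each cell.

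The treated cultures differed in 4606 of 18417 genes (25.0%) at an adjusted p under 0.05 (limma, Benjamini-Hochberg over all genes), 2285 higher in Lo PMX (12.4%) and 2321 lower (12.6%). These genes are called below, and the shares are the background for every count of list members. Lists called at about these shares, such as those of prostanoids, integrins, uracil repair, DNA methylation, lipid synthesis and Notch and Wnt, do not stand out as lists. A difference of at least 2-fold was found for 506 called genes (2.75%), 278 higher (1.51%) and 228 lower (1.24%). In 6872 genes (37.3%) the 3 Lo PMX arrays lay wholly above or wholly below the 3 Hi PMX arrays, and 4550 called genes (24.7% of all) were among them. The median 95% confidence interval of a difference reached 0.19 to either side on the log2 scale, and the median of all differences was 0.01. Without limma's moderation of the variances, which leaves 4 degrees of freedom, 2577 genes were called. Genes named as the few exceptions within a list were picked after their values were seen.

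The genes of cell division were lower in treated Lo cells than in treated Hi cells. Of 55 measured G2 and mitosis genes, 43 were lower and 1 was higher, against a background of 12.6% and 12.4% of all genes, and their median difference was -0.90. PLK1, the kinase that drives entry into mitosis and spindle assembly, stood at 9.83, 9.77 and 9.58 in the 3 Lo PMX arrays and at 11.69, 12.02 and 12.09 in the 3 Hi PMX arrays. The groups did not overlap, and the 6 control arrays lay with Hi PMX, from 11.75 to 12.23. The difference of PLK1 was -2.21 ± 0.11 (SE, adjusted p = 6.66e-07), 4.61-fold lower. KIF15, a spindle kinesin, read 6.68, 6.68 and 6.45 against 7.91, 8.78 and 8.84, a difference of -1.90 ± 0.21. PRC1, which bundles the microtubules of the central spindle, read 8.53, 8.60 and 8.66 against 10.08, 10.59 and 10.80, a difference of -1.89 ± 0.15. For both genes the Hi PMX arrays were spread more widely than the Lo PMX arrays and still lay above all of them. The checkpoint kinase BUB1 differed by -1.54 ± 0.09, the phosphatase CDC25B, which opens the way into mitosis, by -1.15 ± 0.09, and PRR11, a gene of cell cycle progression outside the list, by -2.10 ± 0.11.

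Cyclins of the G2 phase followed the same direction with smaller differences. CCNB1, which activates CDK1 for mitosis, read 7.75, 7.92 and 7.86 in Lo PMX and 8.68, 8.79 and 9.18 in Hi PMX, a difference of -1.04 ± 0.12. CCNB2 differed by -1.19 ± 0.09 and CCNA2 by -1.29 ± 0.10. TOP2A, which untangles sister DNA, differed by -1.29 ± 0.11. MKI67, the antigen used to stain dividing cells, showed a smaller difference of -0.64 ± 0.16 (adjusted p = 0.0120), and its call was lost without Hi PMX 2 (-0.53, adjusted p = 0.0576) and without Hi PMX 3 (-0.53, adjusted p = 0.0568). The single member that was higher was PTTG1 (securin, the guard of sister chromatid separation) at 0.51, with a control difference of 0.60.

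Between the control cultures the same list pointed the other way. There the median of the 55 genes was 0.34, with 13 members higher and 1 lower in Lo Control, where 3.59% and 3.13% of all genes were called higher and lower. For CCNB1, the Lo Control arrays 1 and 2 read 9.43 and 9.47 and the Hi Control arrays 1 and 2 read 8.79 and 8.69. The treated difference minus the control difference (the interaction of folate and pemetrexed) was called for 41 of the 55 genes without the 2 control arrays that go against their labels, and for 36 with all 12 arrays, where 4.16% and 4.81% of all genes were called. This test uses the treated arrays again, so it is no second observation of them. Over all genes it gave 767 calls without those 2 arrays (4.16%) and 1738 (9.44%) when the number of the replicate was a block, an alternative chosen after seeing the data.

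Many mitotic promoters carry the cell cycle genes homology region (CHR), a short element read by the repressive DREAM complex and by activating MYB factors, often next to CCAAT boxes. The promoters of PLK1 and of CCNB2 are shown because both genes belong to the group above and hold the element close to the gene start. They cover the 110 bases before the start (RefSeq, GRCh38.p14), PLK1 at chr16:23678779-23678888 and CCNB2 at chr15:59105036-59105145, both on the plus strand, and the capitals mark TTTGAA.
PLK1: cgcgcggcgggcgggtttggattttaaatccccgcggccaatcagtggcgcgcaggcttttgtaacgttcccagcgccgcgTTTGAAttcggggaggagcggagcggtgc
CCNB2: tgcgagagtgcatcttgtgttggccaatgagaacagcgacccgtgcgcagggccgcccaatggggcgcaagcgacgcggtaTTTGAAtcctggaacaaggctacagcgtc
In windows from 250 bases before to 50 bases after the start, searched on both strands, TTTGAA was found for 31 of 49 list members with a promoter in the table (63.3%) and for 1696 of 14237 genes (11.9%). CCAAT was found for 34 of 49 (69.4%) against 36.3% of all genes. A match describes letters and not a bound site. Among list members TTTGAA was found for 24 of 39 that were called and for 7 of 10 that were not.

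**Figure D1:**
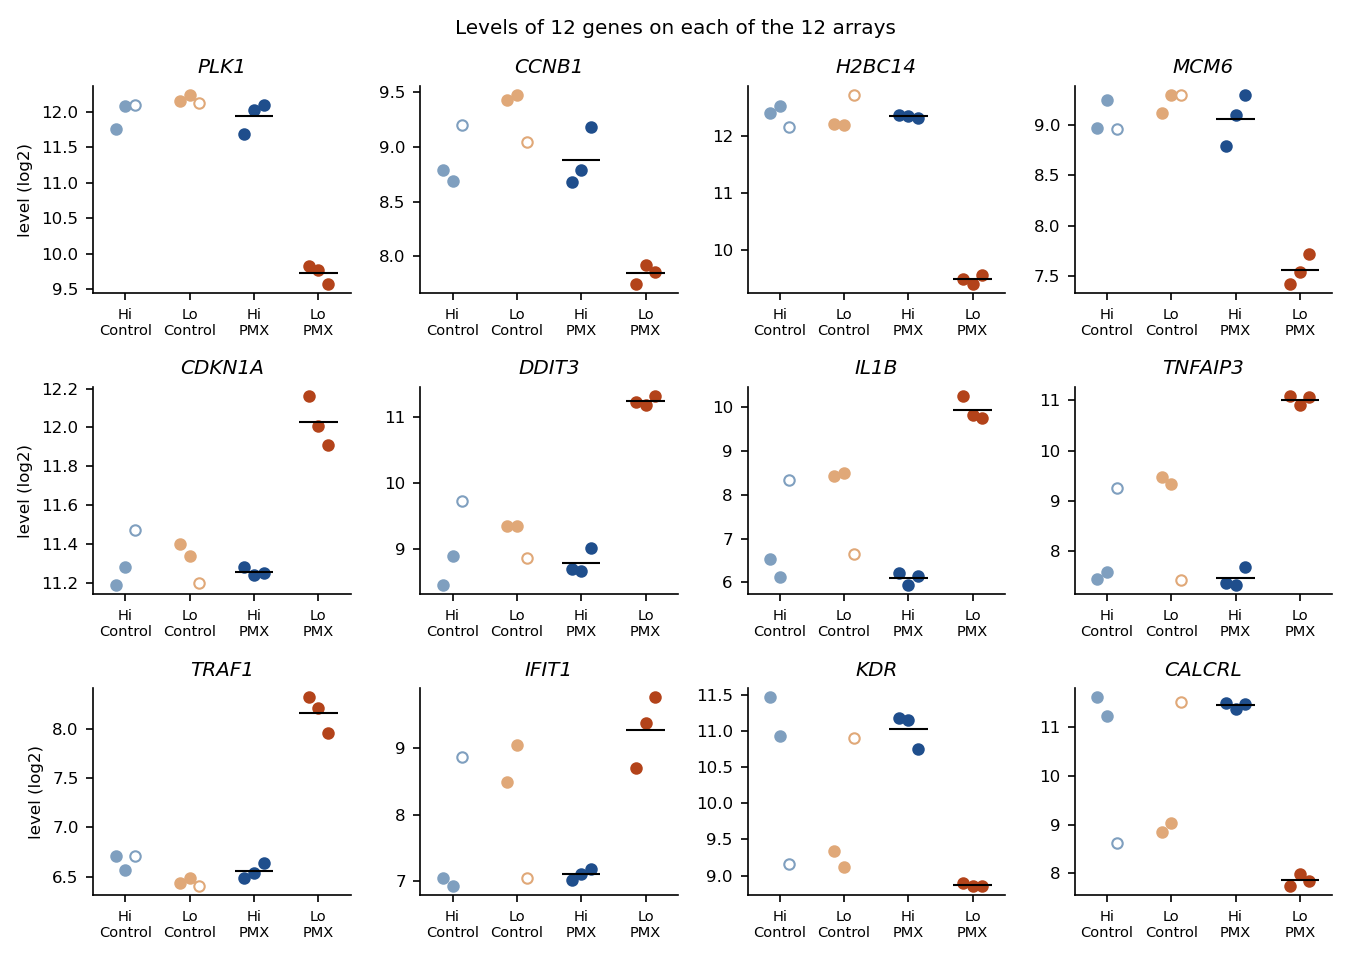
Levels (log2, vertical axes) of 12 genes on each of the 12 arrays, by group (horizontal axes), with a bar at the mean of each treated group. Open circles mark the arrays labelled Hi Control 3 and Lo Control 3. PLK1, CCNB1, H2BC14 and MCM6 are low in the 3 Lo PMX arrays alone, CDKN1A, DDIT3 and TRAF1 are highest there, and IL1B, TNFAIP3, IFIT1, KDR and CALCRL also differ between the Lo and Hi Control arrays 1 and 2.

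DNA replication genes were lower as well. Of 38 S phase genes 23 were lower and 2 were higher in Lo PMX, with a median of -0.48, while the control median was 0.22. MCM6, a subunit of the helicase that opens DNA at origins, read 7.42, 7.54 and 7.72 in Lo PMX and 8.79, 9.10 and 9.30 in Hi PMX. All 6 control arrays (8.96 to 9.30) lay within the span of the Hi PMX arrays. The difference of MCM6 was -1.50 ± 0.13 (adjusted p = 1.48e-05). CDC45, which joins that helicase at the fork, differed by -1.43 ± 0.12, GINS2, its partner, by -1.26 ± 0.10 and MCM5 by -1.04 ± 0.09. The 2 members that were higher were PCNA, the sliding clamp, at 0.27 and GINS4 at 0.50. Of 23 recombination and Fanconi genes, which repair broken and crosslinked DNA, 12 were lower and 1 was higher (the checkpoint kinase ATR at 0.42). XRCC2, a gene of recombination repair, differed by -0.93 ± 0.14, FANCI by -0.81 ± 0.14, the Fanconi ubiquitin-conjugating enzyme UBE2T by -0.68 ± 0.10 and FANCG by -0.49 ± 0.09.

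The promoter of MCM6 (RefSeq, GRCh38.p14, chr2:135876514-135876643, minus strand, 200 to 71 bases before the start) is shown as an S phase example in which the E2F-type motif stands 2 times, marked in capitals. E2F factors drive transcription of replication genes when cells pass from G1 into S phase.
MCM6: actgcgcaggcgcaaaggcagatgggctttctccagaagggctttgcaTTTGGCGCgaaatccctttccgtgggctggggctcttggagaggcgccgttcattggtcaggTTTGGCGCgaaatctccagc
TTTGGCGC or TTTCGCGC, on either strand, was found for 10 of 31 S phase genes with a promoter (32.3%) and for 1.66% of all genes with one. Of called S phase members 8 of 19 held it, and of the others 2 of 12.

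Replication-dependent histone genes, which package new DNA and are transcribed in S phase, were lower in Lo PMX as well. Of 34 measured members 27 were lower and 2 were higher, with a median of -0.82. H2BC14 read 9.48, 9.40 and 9.56 in Lo PMX and 12.38, 12.35 and 12.32 in Hi PMX. Those groups lay apart with little spread in either, and the controls (12.16 to 12.72) lay with Hi PMX. H2BC14 differed by -2.87 ± 0.08 (adjusted p = 9.23e-09), 7.32-fold lower, and H2BC3 by -1.93 ± 0.14, H1-5 by -1.66 ± 0.13 and H2BC9 by -1.62 ± 0.12. Control cultures differed by -0.27 ± 0.08 for H2BC14 (adjusted p = 0.119), and the median of the list between them was -0.01. The interaction was called for 18 of the 34 genes without the 2 doubtful controls and for 22 with all 12 arrays. H4C8 (1.61) and H2BC11 (0.41) were the 2 members that were higher. Both pointed the same way between the control cultures (1.05 and 0.32), where 1 list member was called higher. H2BC12, a histone gene outside the list named after its values were seen, had differences of 1.37 in treated and 1.07 in control cells. Probe sets of histone genes can share sequence, so values of single genes are uncertain.

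Genes were also set in their order along the genome. In RefSeq order, the 3 windows of 15 neighbouring measured genes with the largest absolute median, sharing no gene, all fell in the histone cluster of chromosome 6. The window from H3C2 to H2BC7 had a median of -0.96 (12 of 15 genes lower), that from VN1R10P to H3C12 a median of -0.80 (12 of 15 lower) and that from H4C5 to BTN2A3P a median of -0.71 (9 lower, 1 higher). In the control cultures these medians were -0.08, -0.04 and -0.07. The central 99% of 18049 windows lay between -0.27 and 0.24. The cluster also holds butyrophilin genes, which are no histones and were named after their values were seen. BTN3A2 (-0.88), BTN3A1 (-0.89) and BTN3A3 (-0.59) were lower, and BTN2A2 (0.18), BTN2A3P (0.09), BTN2A1 (0.06) and BTN1A1 (0.04) were not called.

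**Figure D2:**
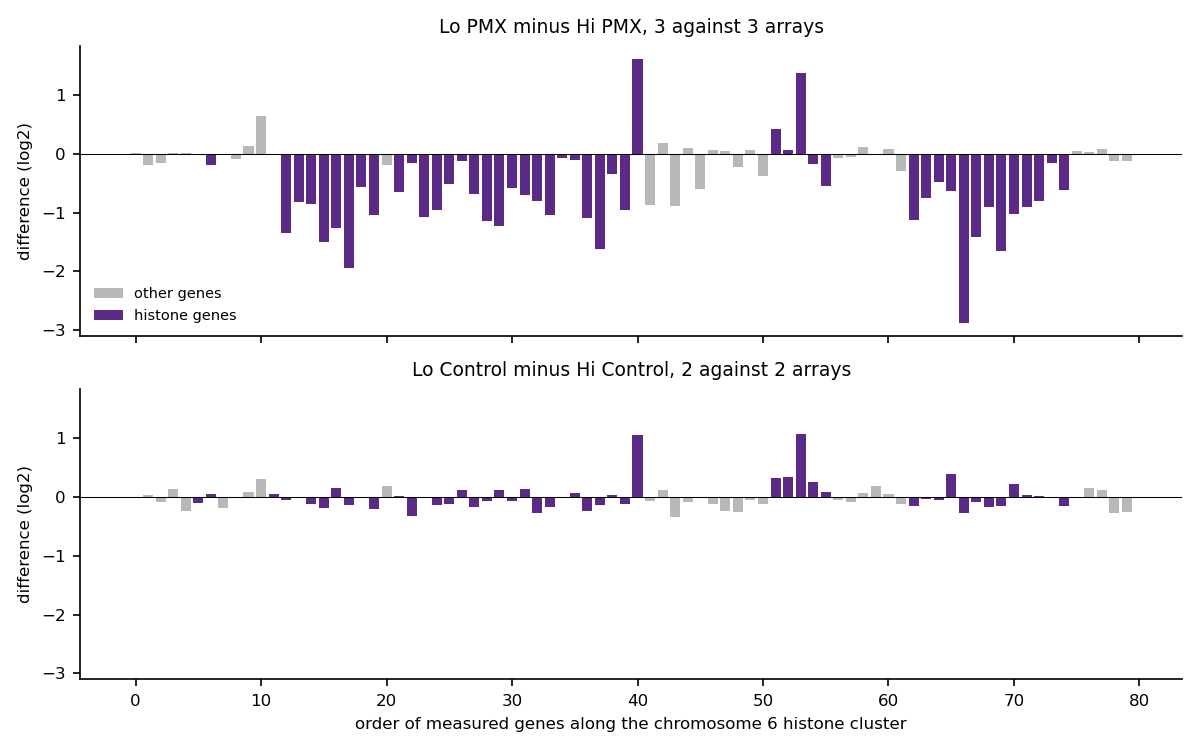
Difference in log2 level (vertical axes) of neighbouring measured genes in their order along the chromosome 6 histone cluster (horizontal axis), for treated cells (top) and for the 2 against 2 controls (bottom). Histone genes (purple) are mostly below 0 in treated cells, down to -2.87 for H2BC14, and near 0 in control cells, apart from H4C8 and H2BC12, which are above 1 in both panels.

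Histone H2B promoters are known for an octamer read by OCT1. The 110 bases before the start of H2BC14 (RefSeq, GRCh38.p14, chr6:27814912-27815021, plus strand) are shown because this gene had the largest histone difference, with the octamer in capitals.
H2BC14: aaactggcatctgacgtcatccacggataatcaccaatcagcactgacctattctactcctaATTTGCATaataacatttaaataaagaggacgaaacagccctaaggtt
ATTTGCAT, on either strand, was found for 14 of 30 histone genes with a promoter (46.7%), for 8 of the 9 H2B genes among them and for 1.62% of all genes. H2BC11, which was higher, holds it too.

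Regulators of the G1 phase did not share 1 direction. Of 26 measured, 5 were higher and 7 were lower, with a median of -0.02. SKP2, which marks the inhibitor p27 for destruction, was lower by -0.94 ± 0.10. The G1 kinase CDK6 was higher (1.08 ± 0.08), as was its partner CCND2 (0.82 ± 0.09). CDKN1A (p21), the cyclin-dependent kinase inhibitor induced by p53, read 12.16, 12.01 and 11.91 in Lo PMX and 11.28, 11.24 and 11.25 in Hi PMX. Every Lo PMX array lay above every other array of the series (highest control 11.47), and CDKN1A was 1.70-fold higher (0.77 ± 0.08, adjusted p = 6.84e-05).

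Targets of p53 were higher in treated Lo cells. Of 36 measured, 25 were higher and 1 was lower (TP53I11 at -0.40), with a median of 0.53 against 0.01 over all genes. The control median was 0.13, with 3 members higher and 2 lower. GADD45A, a DNA damage inducible growth arrest gene, read 11.38, 11.59 and 11.50 against 10.07, 10.19 and 10.29, a difference of 1.31 ± 0.09. TP53I3, an oxidoreductase gene of the p53 pathway, differed by 1.55 ± 0.08, PPM1D, the phosphatase that switches the pathway off, by 1.07 ± 0.09 and the stress sensor SESN2 by 0.93 ± 0.07. For all of these the treated groups did not overlap, and TP53I3 also differed between control cultures (0.74 ± 0.10). MDM2, the ligase that degrades p53, had a smaller difference of 0.36 ± 0.09 (adjusted p = 0.0146) and a control difference of 0.28, and its call was lost without Lo PMX 2 (0.34, adjusted p = 0.0566) and without Lo PMX 3 (0.33, adjusted p = 0.0581). The interaction was called for 16 of the 36 genes without the doubtful controls.

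Genes of amino acid stress were higher in treated Lo cells. ATF4 is the factor through which cells short of amino acids or with stressed endoplasmic reticulum raise transporters and synthetases. Of 31 members 17 were higher and 2 were lower (SLC7A11 at -0.64 and SLC38A2 at -0.29), with a median of 0.45 and a control median of -0.02. DDIT3 (CHOP), a factor of prolonged stress, read 11.23, 11.18 and 11.31 in Lo PMX and 8.69, 8.67 and 9.02 in Hi PMX. No control array exceeded 9.72, and DDIT3 was 5.46-fold higher (2.45 ± 0.10, adjusted p = 1.52e-07), with a control difference of 0.67 ± 0.14. ATF3, another stress-induced factor, differed by 1.31 ± 0.08 and PPP1R15A, which restores translation after stress, by 0.93 ± 0.07. ATF4 itself was not called (0.04), nor was its target TRIB3 (0.35).

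CHAC1, a glutathione-degrading enzyme gene, is shown because its promoter holds the motif through which ATF4 and its partners act, here in the reverse direction and in capitals. The stretch runs from 230 to 101 bases before the start (RefSeq, GRCh38.p14, chr15:40953241-40953370, plus strand). CHAC1 was higher by 0.50.
CHAC1: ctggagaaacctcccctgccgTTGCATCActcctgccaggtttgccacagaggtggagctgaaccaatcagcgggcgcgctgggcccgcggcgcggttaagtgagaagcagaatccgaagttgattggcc
TGATGCAA, on either strand, was found for 6 of 28 members of the list (21.4%) and for 0.730% of all genes. The called members with it were CHAC1 and the aminoacyl-tRNA synthetase genes NARS1 (0.45) and AARS1 (0.64), and CARS1, MARS1 and FGF21 held it without being called.

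The unfolded protein response was called in fewer members. Of 23 genes 6 were higher and 0 were lower, with a median of 0.17. ERN1, the sensor kinase of the endoplasmic reticulum, read 10.36, 10.46 and 10.25 against 9.41, 9.49 and 9.38, a difference of 0.93 ± 0.08 that was 0.09 between control cultures. XBP1, its target, was higher by 0.88 ± 0.11, DNAJB9 by 0.66 ± 0.09 and the chaperone HSPA5 by 0.61 ± 0.08. HSPA5 differed as much between the control cultures (0.59 ± 0.09, adjusted p = 0.0114), and the other 2 by 0.52 and 0.38.

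Immediate early genes, the first to be transcribed after a growth or stress signal, were in part higher. Of 26, 13 were higher and 3 were lower (IER3 at -0.51, KLF10 at -0.29 and IER2 at -0.28). EGR1 read 11.58, 11.44 and 11.88 in Lo PMX and 9.11, 8.92 and 9.13 in Hi PMX. The highest control array read 10.15, and EGR1 was 5.99-fold higher (2.58 ± 0.11, adjusted p = 2.11e-07). FOS, FOSB and EGR1 encode factors that bind DNA. FOS (1.16 ± 0.12) and FOSB (1.12 ± 0.09) differed little between control cultures (0.13 and 0.05), whereas EGR1 differed there by 0.80 ± 0.11. CCN2, which encodes a matrix growth factor, differed in the controls (1.63 ± 0.15) about as much as in treated cells (1.73 ± 0.10). Among 22 genes of ERK feedback and output 6 were higher and 3 were lower. The growth factor HBEGF was higher (1.64 ± 0.11), as were IL11 (1.54 ± 0.15) and the phosphatase DUSP10 (0.80 ± 0.08), whereas the phosphatase DUSP4 was lower (-0.86 ± 0.08).

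A few cytokine and receptor genes, IL1B, IL1RL1 and IL7R among them, had some of the largest positive differences of the comparison. IL1B read 10.24, 9.81 and 9.74 in Lo PMX and 6.22, 5.95 and 6.14 in Hi PMX. The Lo Control arrays 1 and 2 lay between, at 8.42 and 8.50, and the Hi Control arrays 1 and 2 lay with Hi PMX at 6.53 and 6.12. IL1B was 14.2-fold higher in Lo PMX (3.83 ± 0.13, adjusted p = 3.44e-08), and between control cultures it differed by 2.13 ± 0.13. IL1RL1, the receptor of interleukin 33, differed by 3.51 ± 0.10, IL7R, the receptor of interleukin 7, by 3.39 ± 0.13 and IL1A, a membrane-held alarm cytokine, by 2.33 ± 0.08. The 3 genes followed the order of IL1B, with the 2 Lo Control arrays between the treated groups. Their control differences were 1.92, 2.34 and 1.07. Of 36 cytokine and receptor genes 16 were higher and 1 was lower (the interleukin 6 receptor IL6R at -0.93), with a median of 0.12. The interleukin 1 receptor gene IL1R1 (0.03) and its antagonist IL1RN (0.01) were not called. IL6, the acute phase cytokine, was higher by 1.43 ± 0.08 in treated cells and by 1.16 ± 0.10 between controls.

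Feedback genes of NF-kB, the factor through which interleukin 1 and TNF act, included a few large differences among many members that were not called. Of 22, 9 were higher and 1 was lower (the inhibitor NFKBIA at -0.45), with a median of 0.16. TNFAIP3 (A20), the enzyme that turns the pathway off, read 11.08, 10.90 and 11.06 in Lo PMX and 7.37, 7.33 and 7.68 in Hi PMX. Its Lo Control arrays 1 and 2 lay between them at 9.47 and 9.33, and TNFAIP3 was 11.7-fold higher (3.55 ± 0.10, adjusted p = 1.68e-08). TRAF1, an adaptor of TNF receptors, showed another pattern. TRAF1 read 8.32, 8.21 and 7.96 in Lo PMX and 6.49, 6.54 and 6.64 in Hi PMX, while all 6 control arrays lay from 6.41 to 6.71. TRAF1 differed by 1.61 ± 0.10 in treated and by -0.18 ± 0.09 in control cells, and its interaction was 1.78 (adjusted p = 1.59e-04) without the doubtful controls and 1.83 (adjusted p = 2.58e-05) with all 12 arrays. NFKB2, the subunit of the slow pathway arm, was higher by 1.32 ± 0.10 and the inhibitor NFKBIB by 0.82 ± 0.09.

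The promoter of TNFAIP3 is shown because this gene had the largest difference of the NF-kB list and its last 110 bases before the start hold 2 neighbouring NF-kB type motifs (RefSeq, GRCh38.p14, chr6:137867149-137867258, plus strand). Capitals mark them in the reverse direction.
TNFAIP3: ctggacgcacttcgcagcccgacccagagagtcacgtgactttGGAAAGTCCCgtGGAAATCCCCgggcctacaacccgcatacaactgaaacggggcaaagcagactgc
GGG, any 2 bases and TTTCC, on either strand, was found for 6 of 20 list members (30.0%) and for 2.01% of all genes. Of the 6, TNFAIP3 was higher, NFKBIA was lower, and NFKB1, REL, NFKBIZ and TRAF3 were not called.

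Chemokines, which draw leukocytes, were called in 8 of 24 members, 6 higher and 2 lower. CXCL8, which attracts neutrophils, read 9.13, 9.33 and 9.06 in Lo PMX and 6.62, 7.04 and 7.48 in Hi PMX. The groups were well apart although Hi PMX varied, and the difference was 2.12 ± 0.18, 4.36-fold. CXCL8 differed by 1.22 between control cultures. Its neighbours in function CXCL1 and CXCL2 were higher by 0.86 ± 0.09 and 0.75 ± 0.10, and the decoy-like receptor CCRL2 by 0.92 ± 0.10. Their control differences were 0.63, 0.24 and 0.20. CCL2, which attracts monocytes, was lower in Lo PMX, at 10.95, 10.78 and 10.72 against 11.40, 11.30 and 11.15. In control cells CCL2 pointed the other way (0.37 ± 0.09, adjusted p = 0.0539). The other chemokine gene that was lower was the scavenging receptor ACKR4 (-0.41).

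TNF family members were split between 4 higher and 5 lower of 24. TNFRSF9 (4-1BB), a costimulatory receptor, read 7.34, 7.51 and 7.55 in Lo PMX and 6.20, 6.29 and 5.92 in Hi PMX. The 6 controls lay from 6.13 to 6.33, within or near the Hi PMX arrays. TNFRSF9 was higher by 1.33 ± 0.11 in treated cells, with a control difference of -0.06. TNFRSF12A, the receptor of TWEAK, was higher by 0.79 ± 0.09 and the 4-1BB ligand TNFSF9 by 0.73 ± 0.08. CD40, the receptor through which T cells activate endothelium, was lower by -1.55 ± 0.11 and had a control difference of -1.12 ± 0.13.

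Molecules that leukocytes bind on endothelium were called in both directions, 5 higher and 10 lower of 22. ICAM1, the ligand of leukocyte integrins, read 10.25, 10.28 and 10.12 in Lo PMX and 9.69, 9.82 and 9.60 in Hi PMX. The difference of ICAM1 was 0.52 ± 0.09 (adjusted p = 0.00124), and between control cultures it was -0.36 ± 0.13. SELE and VCAM1, the other classical cytokine-induced adhesion molecules, were not called (-0.03 ± 0.07 and -0.10 ± 0.08), and all 12 arrays read 5.07 to 5.32 for SELE. PECAM1, the junction molecule through which leukocytes cross, was lower by -1.09 ± 0.08, CD99 by -0.94 ± 0.08 and ESAM by -0.88 ± 0.10. PVR, the poliovirus receptor, was higher by 1.24 ± 0.08.

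Lipid mediators and complement were called in both directions. PTGS2 (COX-2), the inducible enzyme of prostaglandin synthesis, read 10.17, 10.23 and 10.23 against 7.99, 8.22 and 8.44, 3.97-fold higher (1.99 ± 0.11). PTGIS, which turns its product into the vessel-relaxing prostacyclin, was lower, at 7.39, 7.48 and 7.11 against 8.45, 8.53 and 8.42 (-1.14 ± 0.10). Both differences had the arrays fully apart. The thromboxane synthase TBXAS1 was lower as well (-0.49 ± 0.08), and 3 of the 20 genes of prostanoid and leukotriene metabolism were higher, PTGS2, ALOX5AP (0.46 ± 0.11) and the prostacyclin receptor PTGIR (0.29). The 5 calls of this list became 3 in the fit to 12 arrays, where ALOX5AP had an adjusted p of 0.0804. ALOX5AP differed by 0.51 between control cultures, and PTGS2 by 1.26. C3, the central complement protein, read 8.93, 8.93 and 8.91 against 6.35, 6.61 and 6.49, 5.42-fold higher (2.44 ± 0.08, adjusted p = 3.44e-08). For C3, Lo Control 1 and 2 lay between the treated groups at 7.36 and 7.26. C1S, a starter protease of the classical pathway, was higher by 1.03 ± 0.10 in treated cells and by 0.01 ± 0.12 between controls. Of 18 complement genes 3 were higher and 3 were lower, the latter CLU (-0.57), C5 (-0.47) and CD59 (-0.26).

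Interferon-stimulated genes were higher in Lo PMX and, with a smaller median, in the control Lo cultures. Of 39 measured, 24 were higher and 1 was lower (GBP2 at -1.04) in treated cells, with a median of 0.48, and between control cultures the median was 0.27 with 14 higher and 1 lower. Over all genes 12.4% were called higher in treated cells, from 3 against 3 arrays, and 3.59% in control cells, from 2 against 2. The counts of calls therefore cannot be compared directly. IFIT1, an antiviral RNA-binding protein gene, read 8.70, 9.38 and 9.77 in Lo PMX and 7.01, 7.11 and 7.18 in Hi PMX. Lo Control 1 and 2 read 8.50 and 9.05, inside or near the span of Lo PMX. The treated difference of IFIT1 was 2.18 ± 0.21 and the control difference 1.78 ± 0.17. XAF1, an interferon-induced apoptosis gene, differed by 1.93 ± 0.13 and 1.75 ± 0.11, IFI6 by 1.22 ± 0.09 and 1.32 ± 0.09, and the virus-tethering protein BST2 by 1.11 ± 0.09 and 1.12 ± 0.08. The interaction was called for 1 of the 39 genes without the doubtful controls and for 2 with all 12 arrays. A test that misses the threshold does not show that the differences were equal.

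The interferon-stimulated response element is the motif bound by the complex that interferons activate. It is shown for IFI6 (RefSeq, GRCh38.p14, chr1:27672243-27672372, minus strand, 180 to 51 bases before the start), where it stands 3 times, and for IFIT1 (chr10:89392483-89392612, plus strand, 140 to 11 bases before the start), where it stands 2 times in the reverse direction. Capitals mark it.
IFI6: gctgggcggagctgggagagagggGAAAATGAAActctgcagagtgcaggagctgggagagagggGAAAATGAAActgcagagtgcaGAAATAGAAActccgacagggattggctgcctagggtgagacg
IFIT1: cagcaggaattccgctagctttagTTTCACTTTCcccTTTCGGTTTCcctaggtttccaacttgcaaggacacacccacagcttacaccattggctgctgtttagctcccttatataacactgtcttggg
GAAA, any 2 bases and GAAA, on either strand, was found for 19 of 30 list members with a promoter (63.3%) and for 3.04% of all genes. It was found for 12 of the 20 called members and for 7 of the 10 others.

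**Figure D3:**
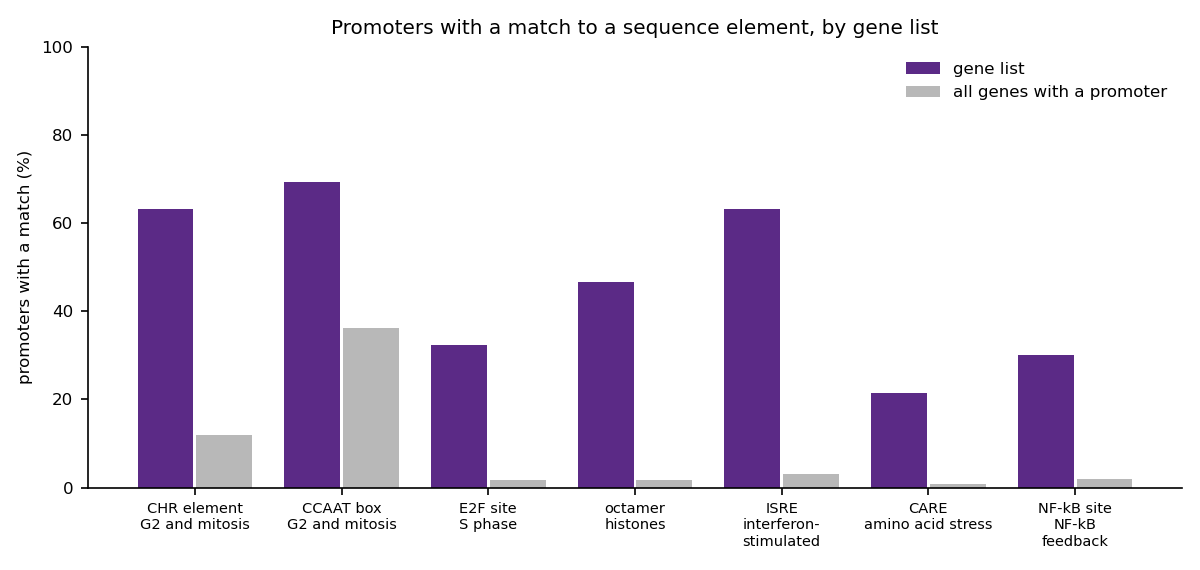
Share of promoters with a match to each of 7 sequence elements (vertical axis, percent), for the gene list named under each pair of bars (purple) and for all 14237 genes with a promoter (grey). The 6 lists lie above all genes for their elements, from 21.4% against 0.730% for the amino acid response element (CARE) to 69.4% against 36.3% for the CCAAT box (ISRE, interferon-stimulated response element).

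Genes of endothelial identity were lower in treated Lo cells. Of 41 measured, 25 were lower and 1 was higher (the decoy VEGF receptor FLT1 at 0.29), with a median of -0.48. The control median was -0.30, with 15 lower and 2 higher, so part of the list was already apart without the drug. The interaction was called for 8 of the 41 genes without the doubtful controls, all negative, and for 4 with all 12 arrays. VWF, the platelet-binding protein stored in Weibel-Palade bodies, read 6.72, 6.88 and 6.68 in Lo PMX and 9.55, 9.11 and 9.00 in Hi PMX. The Lo Control arrays 1 and 2 read 7.03 and 6.91, close to Lo PMX, and VWF was 5.50-fold lower in treated cells (-2.46 ± 0.13) and differed by -2.36 ± 0.21 between control cultures. KDR, the main VEGF receptor, read 8.89, 8.86 and 8.86 against 11.19, 11.15 and 10.76 (-2.16 ± 0.11, and -1.97 ± 0.17 in controls). For KDR, too, Lo Control 1 and 2 (9.34 and 9.12) lay near Lo PMX.

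MMRN1 and CALCRL stood further apart in treated than in control cells. MMRN1, a large platelet and endothelial storage protein, differed by -3.44 ± 0.09 in treated and -2.39 ± 0.13 in control cells, with an interaction of -1.06 (adjusted p = 0.00320) without the doubtful controls and -2.70 (adjusted p = 0.125) with all 12 arrays. CALCRL, the receptor of adrenomedullin and CGRP, had the largest difference of all lower genes. CALCRL read 7.75, 7.98 and 7.84 in Lo PMX, 11.48, 11.36 and 11.47 in Hi PMX, and 8.84 and 9.03 in Lo Control 1 and 2. CALCRL differed by -3.58 ± 0.08 (adjusted p = 9.23e-09), with a control difference of -2.48 ± 0.13 and an interaction of -1.11 (adjusted p = 0.00252) without the doubtful controls and -2.90 (adjusted p = 0.132) with all 12 arrays. The lectin CLEC14A differed by -2.05 ± 0.15 in treated and -1.01 ± 0.15 in control cells. Its interaction was -1.04 (adjusted p = 0.0439) without the doubtful controls and -1.76 (adjusted p = 0.0536) with all 12 arrays. The sialomucin EMCN differed by -1.95 ± 0.08 in treated and by nearly as much, -1.77, in control cells. The interaction of EMCN was -0.18 without the doubtful controls and -1.39 with all 12 arrays, and was called in neither fit. CDH5, the cadherin of endothelial junctions, read 12.36, 12.20 and 11.98 in Lo PMX and 12.83, 12.77 and 12.64 in Hi PMX, a difference of -0.57 ± 0.10. The nitric oxide synthase NOS3 was not called (-0.25 ± 0.15, adjusted p = 0.299), and was called when replicate number was a block (adjusted p = 0.0330).

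Vessel growth factors and their receptors were called 13 times higher and 12 times lower among 46. The coreceptor NRP1 was lower by -1.30 ± 0.08, whereas ANGPTL4, a secreted lipase inhibitor that acts on vessels, read 11.14, 11.25 and 11.05 against 9.04, 9.08 and 9.14 (2.06 ± 0.08). Control differences were -0.62 for NRP1 and 1.60 for ANGPTL4. In the clotting group, 7 of 24 were higher and 4 lower. The plasminogen activator PLAT was higher by 1.80 ± 0.08, the protease inhibitors SERPINE2 and SERPIND1 by 2.51 ± 0.13 and 1.30 ± 0.09, and the thrombin coreceptor F2RL2 by 1.31 ± 0.10. Between control cultures PLAT differed by 1.23, SERPINE2 by 1.51, SERPIND1 by 0.36 and F2RL2 by 0.97. Those that were lower were TFPI (-0.72), the inhibitor of tissue factor, PROS1 (-0.59), THBS1 (-0.41) and the thrombin receptor F2R (-0.37).

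**Figure D4:**
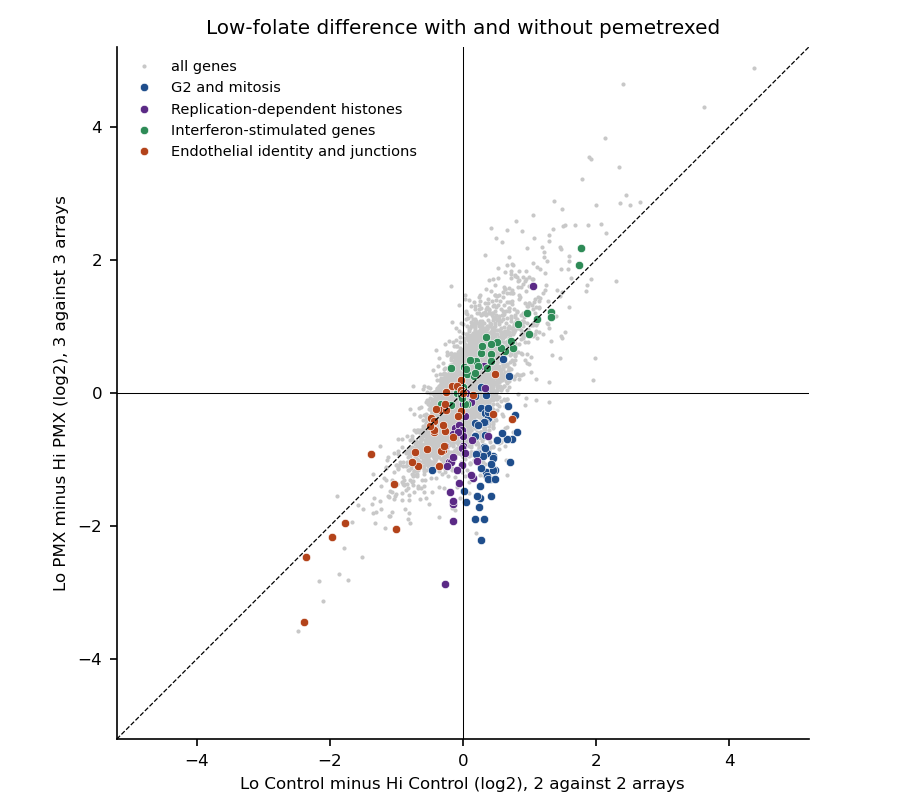
Each gene's difference in log2 level between Lo PMX and Hi PMX (vertical axis, 3 against 3 arrays) and between Lo Control and Hi Control (horizontal axis, 2 against 2 arrays, without those labelled replicate 3), with 4 gene lists coloured and equality dashed. Across all genes r was 0.70, and it was 0.46 with the 3 against 3 controls as labelled. Endothelial genes had a median of -0.48 in treated and -0.30 in control cells, and interferon-stimulated genes 0.48 and 0.27, while G2 and mitosis genes and histone genes mostly had a lower treated than control difference, with medians of -0.90 and -0.82 in treated and 0.34 and -0.01 in control cells.

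Growth factor pathways that shape matrix and cell fate differed in both directions. Of 34 TGF-beta and BMP genes 11 were higher and 5 were lower. INHBA, the activin A subunit, read 11.14, 11.42 and 11.54 against 8.30, 9.04 and 9.20 (2.52 ± 0.20), and its binding inhibitors FST (1.68 ± 0.12) and FSTL3 (1.61 ± 0.08) were higher as well. Ligand and inhibitors were thus higher in the same arrays, with control differences of 1.68, 0.93 and 0.99. BMP6 was lower (-1.03 ± 0.09). Of 37 Notch and Wnt genes 5 were higher and 7 were lower. The Notch ligand JAG1 was higher by 1.37 ± 0.07, the Wnt inhibitor DKK1 by 1.63 ± 0.20 and the R-spondin receptor LGR4 by 1.05 ± 0.12. Between control cultures JAG1 differed by 0.70, DKK1 by 1.87 and LGR4 by 0.97. MFNG, which modifies Notch receptors, was lower by -0.97 ± 0.08.

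Among 33 matrix genes 13 were higher and 11 lower. SPP1 (osteopontin) read 8.99, 9.52 and 9.45 against 6.03, 6.33 and 6.98 (2.87 ± 0.21), and fibronectin (FN1) was higher by 1.14 ± 0.09. SPP1 reached the same levels in Lo Control 1 and 2 (9.02 and 9.54). The proteoglycan BGN was lower by -1.68 ± 0.13, with a control difference of -1.58 ± 0.11. Proteases and inhibitors were called in 11 of 29 members, 4 higher and 7 lower. The aggrecanase ADAMTS1 was higher by 1.87 ± 0.11, and the stromelysin MMP10 (-1.55 ± 0.12), ADAM19 (-0.85 ± 0.07) and the inhibitor TIMP2 (-0.76 ± 0.08) were lower. MMP10 differed more between control cultures (-1.89 ± 0.13), and ADAMTS1 (1.16), ADAM19 (-0.54) and TIMP2 (-0.38) differed less. The count of 11 fell to 6 without Lo PMX 3 and to 7 without Hi PMX 2 or without Hi PMX 3. Of 22 integrin genes 2 were higher, ITGB3 (1.11 ± 0.07) and ITGB8 (0.59), and 4 were lower. Those shares, 9.09% and 18.2%, lay near the 12.4% and 12.6% of all genes. The collagen receptor subunit ITGA10 read 7.37, 7.42 and 7.22 against 9.85, 9.71 and 9.87 (-2.47 ± 0.08), ITGB4 differed by -1.08 ± 0.14 and ITGA11 by -0.88 ± 0.08. The control differences of ITGB3, ITGA10, ITGB4 and ITGA11 were 0.60, -1.51, -0.67 and -0.64.

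Genes that take up, retain or meet the drug differed little at the RNA level. Of 17 measured, 3 were higher and 2 were lower, near the background of all genes, with a median of 0.03. TYMS read 11.11, 11.47 and 11.19 in Lo PMX and 11.25, 11.44 and 11.66 in Hi PMX. The groups overlapped and the difference was -0.19 with a 95% confidence interval from -0.46 to 0.07. The carrier SLC19A1 (0.03, interval from -0.16 to 0.21), the folate receptor FOLR1 (0.01, from -0.17 to 0.19), FPGS (-0.14, from -0.36 to 0.09) and GART (0.18, from -0.02 to 0.38) were not called either. GGH, which removes glutamates from folates and antifolates, was lower by -0.54 ± 0.12 (adjusted p = 0.00742) and pointed the other way between controls (0.32 ± 0.13). The exporter ABCC1 was lower by -0.47 ± 0.07, and ABCC5 (0.47 ± 0.07), FOLR3 (0.64 ± 0.08) and the proton-coupled carrier SLC46A1 (0.39 ± 0.09, adjusted p = 0.0107) were higher. The call of SLC46A1 was lost without Hi PMX 2 (0.35, adjusted p = 0.0516), and its control difference was 0.42 ± 0.08.

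One-carbon genes were called in 11 of 23 members, 8 higher and 3 lower, and in 7 without Lo PMX 3 or in the fit to 12 arrays. MTHFD2, a mitochondrial enzyme of folate one-carbon metabolism, read 11.69, 11.70 and 11.75 against 10.41, 10.56 and 10.85 (1.11 ± 0.11). CTH, which makes cysteine, was higher by 1.19 ± 0.10, AHCY, which clears S-adenosylhomocysteine, by 0.67 ± 0.09 and the methionine synthase reductase MTRR by 0.60 ± 0.07. Between control cultures AHCY differed nearly as much (0.60 ± 0.10), MTHFD2 by 0.51, CTH by 0.35 and MTRR by 0.23. The cytosolic SHMT1 was lower, at 6.78, 7.06 and 6.99 against 7.40, 7.76 and 7.93 (-0.76 ± 0.13), as were methionine synthase MTR (-0.42) and MAT2B (-0.33). Nucleotide genes were called in 15 of 32 members, 6 higher and 9 lower, and in 9 without Lo PMX 3. UPP1, which breaks down uridine, was higher by 0.84 ± 0.09 and PPAT, the first enzyme of purine synthesis, by 0.61 ± 0.10. The kinase DCK (-0.81 ± 0.14) and the nucleoside transporter SLC29A1 (-0.53 ± 0.08) were lower. Control differences were 0.20 for UPP1, 0.48 for PPAT, -0.26 for DCK and -0.34 for SLC29A1. ATIC, a purine enzyme, was not called (0.25 ± 0.09, adjusted p = 0.0751), and was called when replicate number was a block (adjusted p = 0.0167) and without Hi PMX 3 (0.32, adjusted p = 0.0422).

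Uracil enters DNA when thymidylate is short, and base excision repair removes it. Of 19 genes of this repair 1 was higher and 4 were lower (5.26% and 21.1%, against 12.4% and 12.6% of all genes). UNG, the main uracil glycosylase, read 8.41, 8.78 and 8.61 against 9.44, 9.47 and 9.89, lower with a 95% interval from -1.30 to -0.70. The thymine glycosylase TDG went the other way, at 7.85, 7.76 and 7.88 against 7.29, 7.15 and 7.30 (0.59 ± 0.08). Neither gene's groups overlapped, and the control differences were -0.13 and -0.19. OGG1, which removes oxidised guanine, was lower by -0.76 ± 0.08 and NEIL3 by -0.81 ± 0.13, while NTHL1 was lower by -0.27.

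Metabolic and stress programmes were called in some members each. Of 31 genes of hypoxia and glycolysis 9 were higher and 2 were lower (HIF1A at -0.42 and ADM at -0.37). The glucose carrier SLC2A1 read 11.89, 11.86 and 11.92 against 10.56, 10.65 and 10.77 (1.23 ± 0.08), the carbonic anhydrase CA12 was higher by 0.98 ± 0.09 and the glycolysis activator PFKFB3 by 0.88 ± 0.08. Control differences of SLC2A1, CA12 and PFKFB3 were 0.70, 0.68 and 0.20. Of 25 NRF2 targets 7 were higher and 4 were lower. The aldo-keto reductase AKR1B10 was higher by 2.82 ± 0.26, and NQO1, a classical target, was lower by -0.57 ± 0.08. Their control differences were 2.00 and -0.23. Of 26 lipid synthesis and sterol genes 4 were higher and 4 were lower, with the cholesterol exporter ABCA1 at 1.47 ± 0.10 and the desaturase SCD at -1.21 ± 0.08. In control cultures ABCA1 differed by 0.48 and SCD by -0.77. The lysosome list had 7 higher and 4 lower of 30. ATP6V0D2, a proton pump subunit, read 9.00, 9.61 and 9.85 in Lo PMX and 4.71, 4.74 and 5.11 in Hi PMX, 24.8-fold higher (4.64 ± 0.19, adjusted p = 1.39e-07). Lo Control 1 and 2 lay between at 7.32 and 7.87. The sterol exporter NPC1 was higher by 0.84 ± 0.09 and the sialidase NEU1 by 0.79 ± 0.10. The 11 calls of the lysosome list became 18 with the replicate block, 6 without Lo PMX 3 and 7 without Hi PMX 3.

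Regulators of cell death were called 6 times higher and 4 times lower among 27. BCL2L11 (BIM), a killer protein of the BCL2 family, read 8.26, 8.21 and 8.48 against 9.35, 9.71 and 9.52 (-1.21 ± 0.11), with a control difference of -1.35 ± 0.11. The protective BCL2A1 (0.91 ± 0.10) and the proteases CASP1 (0.92 ± 0.09) and CASP10 (1.00 ± 0.08) were higher. Their control differences were 1.15, 0.70 and 0.48. Cytosolic ribosomal protein genes served as a reference of broad expression. Of 34, 1 was called, RPS24 at 0.77 ± 0.12, and their median was -0.01.

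Markers of other cell types were examined because the line is a hybrid and because they touch the endothelial result. The mean level over the 41 endothelial genes was 9.18 to 9.28 across the Lo PMX arrays and 9.84 to 10.00 across the Hi PMX arrays. Of 24 epithelial and lung carcinoma markers 6 were higher and 1 was lower (CPS1 at -0.59), and the list means were 7.91 to 7.94 and 7.62 to 7.64. CLDN1, a tight junction protein, read 12.54, 12.68 and 12.79 against 9.69, 10.49 and 10.46 (2.46 ± 0.18). Between control cultures CLDN1 differed by 1.36 ± 0.26. The defining epithelial genes KRT18 (0.01), KRT19 (0.02) and CDH1 (0.15) were not called, and EPCAM was higher by 0.38. Of 20 fibroblast and smooth muscle markers 6 were higher and 0 were lower, with list means of 7.09 to 7.12 and 6.84 to 6.95. POSTN (0.91 ± 0.10), ACTA2 (0.81 ± 0.09), FAP (0.59 ± 0.10) and the myosin kinase MYLK (0.51 ± 0.09) were among them, whereas COL1A1 (0.03), COL3A1 (-0.01), DCN (0.01) and LUM (-0.04) were not called. POSTN (1.53) and FAP (0.89) differed more between control cultures, and ACTA2 (0.47) and MYLK (0.18) differed less. In the fit to 12 arrays 3 of the 6 calls were made. Of 19 leukocyte markers 2 were higher, ITGAX (0.75 ± 0.13) and CD68 (0.32 ± 0.08), and 1 was lower, LYZ (-0.74 ± 0.11), while PTPRC differed by 0.07. The call of CD68 was lost without Lo PMX 2 (0.27, adjusted p = 0.0696) and without Hi PMX 2 (0.27, adjusted p = 0.0740). The part of other cell types in the endothelial result was not tested.

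**Figure D5:**
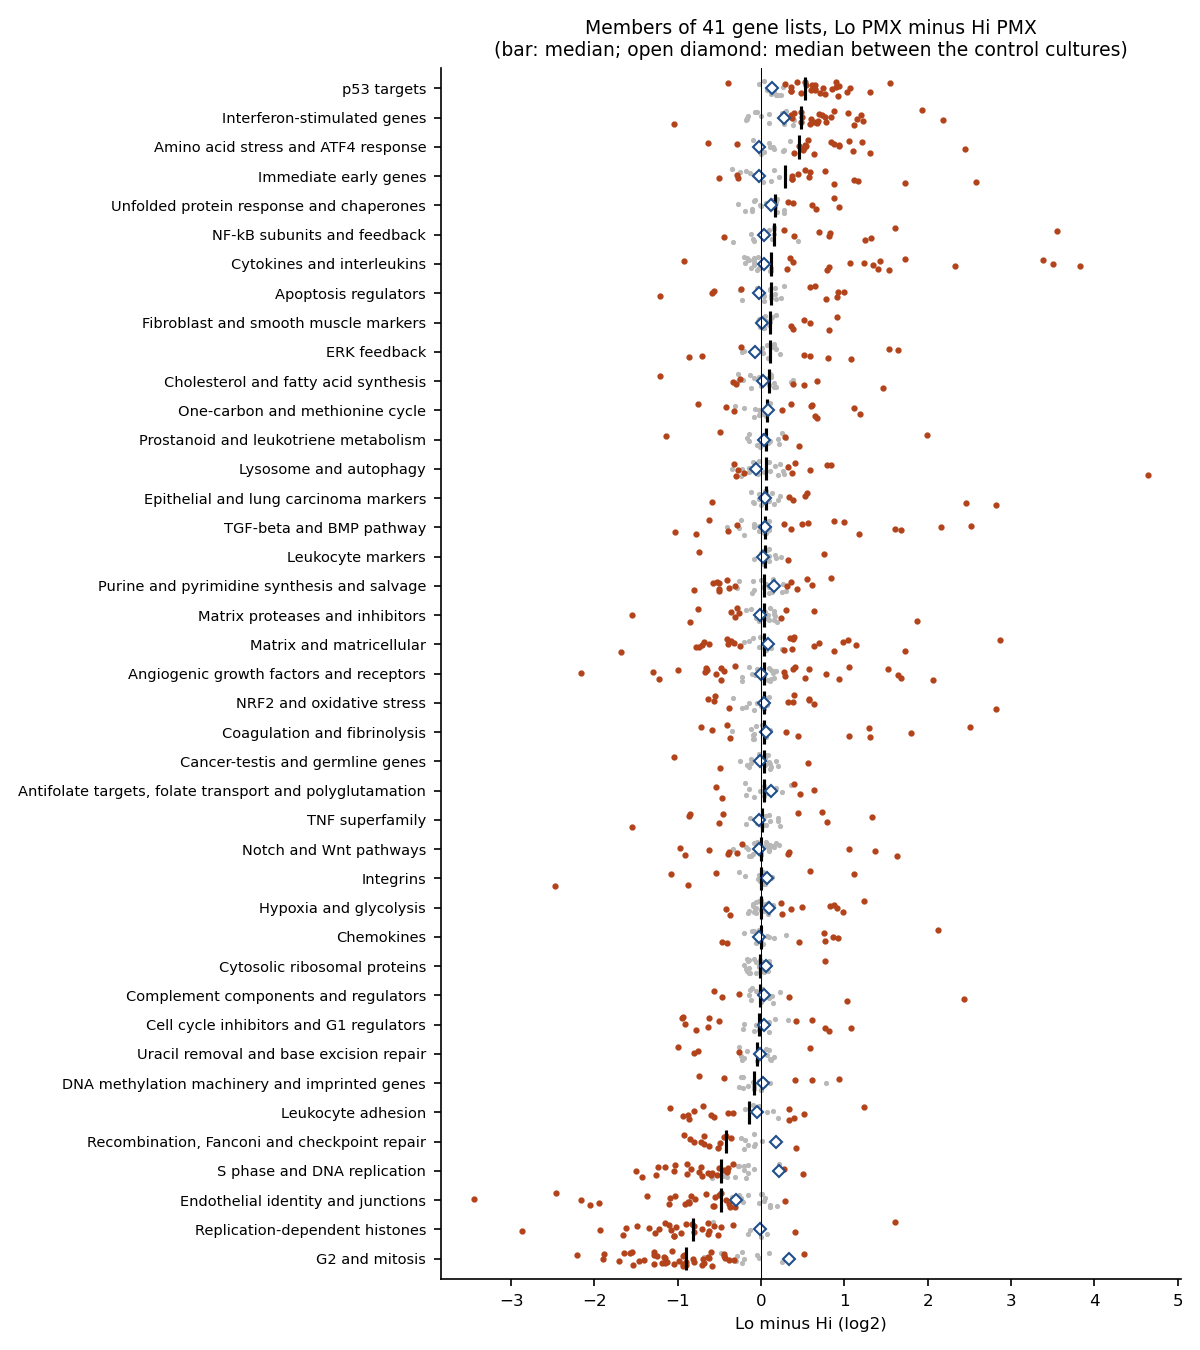
Difference in log2 level between Lo PMX and Hi PMX (horizontal axis) of every measured member of 41 gene lists (rows, ordered by median), with called members in red, others in grey, a bar at the median and an open diamond at the median between control cultures. G2 and mitosis genes (median -0.90) and histones (-0.82) lie at the bottom and p53 targets (0.53) at the top, and the diamond of the mitosis list lies on the other side of 0 (0.34).

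Genes outside the lists made up much of the top of the ranking. AMTN (amelotin), an enamel matrix protein gene, had the largest difference. AMTN read 11.66, 11.76 and 11.45 in Lo PMX, 6.20, 6.36 and 7.68 in Hi PMX, and 10.95 and 11.31 in Lo Control 1 and 2. AMTN was 29.4-fold higher (4.88 ± 0.31, adjusted p = 2.21e-06), with a control difference of 4.38 ± 0.24. CLCA2, a regulator of chloride conductance, differed by 4.30 ± 0.11 and 3.63 ± 0.08 in treated and control cells. The serpin SERPINB7 (3.21 ± 0.11 and 1.79 ± 0.10), the lipid transporter ABCA12 (2.88 ± 0.09 and 1.37 ± 0.09) and RFPL4A (2.77 ± 0.10 and 1.49 ± 0.12) stood further apart under the drug, with interactions called in both fits. The sulfotransferase SULT1B1 (2.97 and 2.46), the retinol dehydrogenase DHRS9 (2.85 and 2.36) and the carboxypeptidase CPA4 (2.82 and 2.51) completed the 15 genes with the largest positive differences, together with those given above. Among lower genes the ganglioside enzyme ST3GAL5 differed by -3.12 ± 0.09 and -2.10 ± 0.08, the exchange factor RASGRP3 by -2.82 ± 0.10 and -2.16 ± 0.16, ABCA8 by -2.81 and -1.73, LRRC70 by -2.72 and -1.86, PPP1R16B by -2.33 and -1.78 and the zinc finger factor ZNF521 by -2.03 and -1.17. Of the 15 genes with the largest negative differences, H2BC14, PLK1 and PRR11 were the 3 not called between control cultures.

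Over all genes, the difference between treated cultures was set beside that between control cultures, which share no array with it. With 3 against 3 control arrays 0 genes were called by limma (288 at an unadjusted p under 0.05, 1.56%), and without the 2 doubtful arrays 1238 were called (6.72%). Of these, 1056 were also called in treated cells, which is 22.9% of the treated calls and 85.3% of the control calls. The direction was the same in 1029 and opposite in 27. Of the 27, 26 were lower in Lo PMX and higher in Lo Control, and 11 of the 26 belong to the G2 and mitosis list. They include TOP2A (-1.29 and 0.48), CCNA2 (-1.29 and 0.41), GINS2 (-1.26 and 0.47), KIF4A (-1.16 and 0.45), the phosphatase CDKN3 (-1.08 and 0.45) and CCNB1 (-1.04 and 0.71). UHRF1, which keeps DNA methylation through replication, is another (-0.75 ± 0.09 and 0.54 ± 0.12). The single gene in the other direction was RNF185, a ubiquitin ligase gene, at 0.27 in treated and -0.40 in control cells. For the 278 genes at least 2-fold higher in Lo PMX the median was 1.35 in treated and 0.73 in control cells, and for the 228 at least 2-fold lower it was -1.24 and -0.63. These genes were chosen by their treated values, and the control medians did not enter that choice. The control medians still rest on 2 against 2 arrays, left after removing the 2 that went against their labels. That removal drew in part on correlation with treated arrays, so the control medians are not free of all choice.

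Genes of the germline and of DNA methylation were counted by the same test. Of 23 cancer-testis genes 1 was higher (MAGEB2 at 0.56 ± 0.08) and 2 were lower (SSX1 at -1.05 ± 0.12 and CTCFL at -0.49 ± 0.08). With the mean of all its probe sets CTCFL was not called (-0.24, adjusted p = 0.0515). Of 20 genes of the methylation machinery and of imprinting 3 were higher, PLAGL1 (0.93 ± 0.11), PEG10 (0.61 ± 0.10) and PHLDA2 (0.41), and 2 were lower, UHRF1 and TET1 (-0.45 ± 0.12, adjusted p = 0.0169). Between control cultures PEG10 differed by 0.83 and PLAGL1 by 0.63. TET1, an enzyme that oxidises methylated cytosine, lost its call without Lo PMX 1 (-0.35, adjusted p = 0.0544) and without Hi PMX 2 (-0.34, adjusted p = 0.0683). The list had 9 calls with the replicate block and 3 without either of those arrays. DNMT1, DNMT3A and DNMT3B, which methylate DNA, were not called (-0.08, -0.22 and -0.09).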

How the data were processed

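Total RNA of the 12 EA.hy926 samples was measured on human gene arrays. The deposited values are log2 expression of probe sets, which the authors obtained by RMA in Partek 6.5 per the submitters' processing notes. RMA settings are not given in the sources used here, and no background or detection call is given, so precision is limited by how many arrays there are. Of 33297 probe sets, 19460 are paired with 1 gene symbol, 1754 with several (left out) and 12083 with none in the platform annotation, and 19429 Entrez identifiers were found in RefSeq GRCh38.p14. The probe set brightest over the 12 arrays stood for each of 18417 genes, 769 of which have more than 1.

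Lo PMX was compared with Hi PMX in limma 3.58.1 (R 4.3.3) with moderated variances on the 6 treated arrays, with Benjamini-Hochberg adjustment over all genes, a threshold of 0.05 and standard errors of the difference. On simulated data with 18417 genes, drawn independently from normal distributions, the fit found 73 of 100 genes set 1.5-fold apart and 94 of 100 set 2-fold apart, with 6 false calls. Only those genes were set apart, whereas 25.0% of genes were called in the data, so these counts need not hold there. The titles number replicates 1 to 3 in each group. Deviations from the group means correlated between treated arrays of the same number at 0.5144, 0.1149 and 0.2264, and between arrays of different numbers at -0.3544 to 0.2236. The fit with the number as a block was an alternative, beside other samples, normalization, dim gene and variance choices.

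The 41 gene lists (1252 members listed, 1155 measured) and the members were chosen with earlier results of these data known. Named genes were the 15 largest differences in each direction among genes whose treated groups do not overlap, up to 4 called members with the smallest p per list, 27 genes given whatever their p (drug targets and folate carriers, cell cycle, cytokine, adhesion and endothelial genes), the genes with the largest interaction, those with the largest difference also called in control cells in the same or the opposite direction, genes of the 3 gene windows, and up to 2 members not called per list. Genes given as the few exceptions of a list, as matches of a motif or as further members not called (collagens and DNA methyltransferases among them) were picked after their values were seen. Some list members are not reported here.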

Additional observations from a re-analysis of the deposited data

Results flagged for a closer look

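For 78 of the 195 named genes the difference between Lo and Hi cells under pemetrexed differed from the difference between the control cultures, by the interaction in limma (adjusted p under 0.05) both over all 12 arrays and without the arrays labelled Hi Control 3 and Lo Control 3. Over all genes these 2 fits called 4.81% and 4.16%. Some of the 195 were named by the size of their interaction or by opposite calls in treated and control cells, so the count of 78 is partly set by that choice. The 23 given here were named for the size of their difference or interaction, for a call in treated and control cells, or whatever their p (adjusted p from 2.58e-05 to 0.0431 over 12 arrays). The other 55 were named by their list alone, 33 with an interaction above 0 and 22 below 0. Each value is the treated minus the control log2 difference, followed by the value without those 2 arrays.

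Among genes of mitosis and replication the interaction was -2.40 for PLK1 (-2.48 without them), -2.22 for KIF15 (-2.22), -2.22 for PRR11 (-2.30) and -2.02 for PRC1 (-2.08). It was -1.56 for TOP2A (-1.77), -1.55 for GINS2 (-1.73), -1.50 for CCNA2 (-1.70) and -1.49 for KIF4A (-1.62). For CCNB1 it was -1.46 (-1.75) and for CDKN3 -1.45 (-1.53). H2BC14 had -2.88 (-2.60), the largest negative value of the 23.

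Positive values were found for stress and inflammatory genes, with 2.29 for DDIT3 (1.78), 2.98 for IL1B (1.70), 2.83 for IL1RL1 (1.60) and 2.90 for TNFAIP3 (1.66). CDKN1A had 0.76 (0.63) and ICAM1 0.71 (0.88). ATP6V0D2 had 3.92 (2.24), ABCA12 2.52 (1.52), SERPINB7 2.39 (1.42) and RFPL4A 2.23 (1.28). CCL2 had -0.65 (-0.84) and GGH -0.74 (-0.86). An adjusted p under 0.05 without the 2 arrays was a condition for being among the 23, so it is no further result. The sign was the same in both fits for all 23. The fits share the treated arrays and most control arrays, so that is no further result either. IL1B, IL1RL1, TNFAIP3, ATP6V0D2, ABCA12, SERPINB7 and RFPL4A had values more than 1.5 times larger with the 2 arrays than without.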

How the results depend on the processing

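The 195 named genes kept their direction in every alternative in which they were tested (187 of them with the dimmest genes left out), and 167 also kept their side of the threshold. Leaving out each treated array in turn gave 3647 to 4595 called genes (1781 to 2152 higher, 1818 to 2443 lower, 489 to 526 at least 2-fold apart) against 4606, and 3098 of the 4606 were called each time. Without moderated variances 2577 were called, 1276 higher and 1301 lower, and 23 named genes lost their call. Lists then fell too, G2 and mitosis from 44 to 25 calls, S phase from 25 to 12, recombination from 13 to 2 and interferon-stimulated genes from 25 to 16. The replicate block gave 5903 calls, which include all 4606, and changed the calls of ATIC and NOS3 and no other named gene. The fit to 12 arrays gave 4107 calls, 3943 of them among the 4606, and lost ALOX5AP, CD68, FAP, PEG10 and POSTN, and that to 10 arrays gave 5106. Genes called in treated and control cells numbered 0 with 3 against 3 control arrays and 1056 without both control replicates 3, which removes the 2 arrays that go against their labels. The interaction was called for 886 genes, for 994 with the replicate block, and for 1738 with the replicate block without both control replicates 3, an alternative chosen after seeing the data, and the cause was not tested. With 3 arrays a group and no detection call, small differences of dim genes are the least certain.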

Other observations

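Outside the histone cluster, the window of neighbouring genes with the largest absolute median lay in the protocadherin beta cluster of chromosome 5, which encodes cell adhesion molecules of the cadherin family. It was chosen after the values were seen. From PCDHB2 to PCDHB14 the median was -0.67 in treated cells and -0.51 between control cultures without the 2 doubtful arrays. Of 18 measured PCDHB genes 12 were lower in Lo PMX and 0 were higher, and their median was -0.53 in treated and -0.52 in control cells. PCDHB5 differed by -1.38 (adjusted p = 1.35e-04 by limma). Probe sets of this family can share sequence, so values of single members are uncertain.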
